A study of Mus musculus with 9 samples.

Results

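The genes described here mark the segments of the nephron, the filtering and reabsorbing unit of the kidney, and were measured in arrays of whole mouse lung. They were taken as a list of 40 gene symbols covering the proximal tubule, the thick ascending limb of the loop of Henle, the distal tubule, the collecting duct and the podocyte, with the transcription factors Hnf4a and Pax8. Of these, 38 had a probe set annotated with that symbol alone, out of 18193 genes on the array. The other two, Ggt1 and Atp6v1g3, were not found under those symbols in the annotation used. The list was drawn up because its genes were known to be high on hypoxic BL6 array 2 and normoxic FVB/N array 1, so their levels on those 2 arrays are given as a description and carry no test.

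Right lungs came from mice of the inbred strains C57/BL6 (BL6), FVB/N and SV129, and total RNA of the homogenate was hybridised to 9 one-colour oligonucleotide arrays. Hypoxic groups had 4 weeks of hypobaric hypoxia at 50 kPa, with 2 arrays for each strain: BL6 arrays 2 and 5, FVB/N arrays 2 and 6, and SV129 arrays 2 and 5. Normoxic groups were at 85 kPa, with 1 array for each strain, numbered 1. The labels give no age, sex, genetic change or drug, and do not say whether each array was a separate animal, so the spread behind each p-value may be technical. A level is the log2 of signal + 16 after quantile normalization, the brightest probe set stands for its gene, and in such homogenates fewer cells of a type and less RNA per cell cannot be told apart.

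Proximal tubule cells reclaim glucose, amino acids, phosphate and filtered protein from the urine, and secrete organic anions and cations through dedicated carriers. The thick ascending limb and the distal convoluted tubule recover salt through separate chloride cotransporters, and the collecting duct recovers water through aquaporins. Podocytes form the slit filter of the glomerulus, upstream of all tubule segments. Healthy lung is not known for most of these carriers, although megalin (Lrp2) and fructose bisphosphatase (Fbp1) are made outside the kidney too.

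On the 2 arrays named above, all 38 genes lay higher than on any of the other 7 arrays. Over all 18193 genes the share for which both arrays exceeded all 7 was 8.23%. The level on both was at least 8-fold above the highest of the 7 for 27 of the 38, against 0.704% of all genes. The mean of the 2 arrays exceeded the mean of the 7 by a median of 6.34 log2 units, from 1.38 for Nphs1 to 8.82 for Miox, where the median over all genes was -0.07. Of the 20 largest such differences on the array, 10 belonged to these genes. Among 27 further probe sets of the same genes, 20 also had both arrays above all 7. A single gene's SD over the 7 arrays had a median of 0.55.

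**Figure D1:**
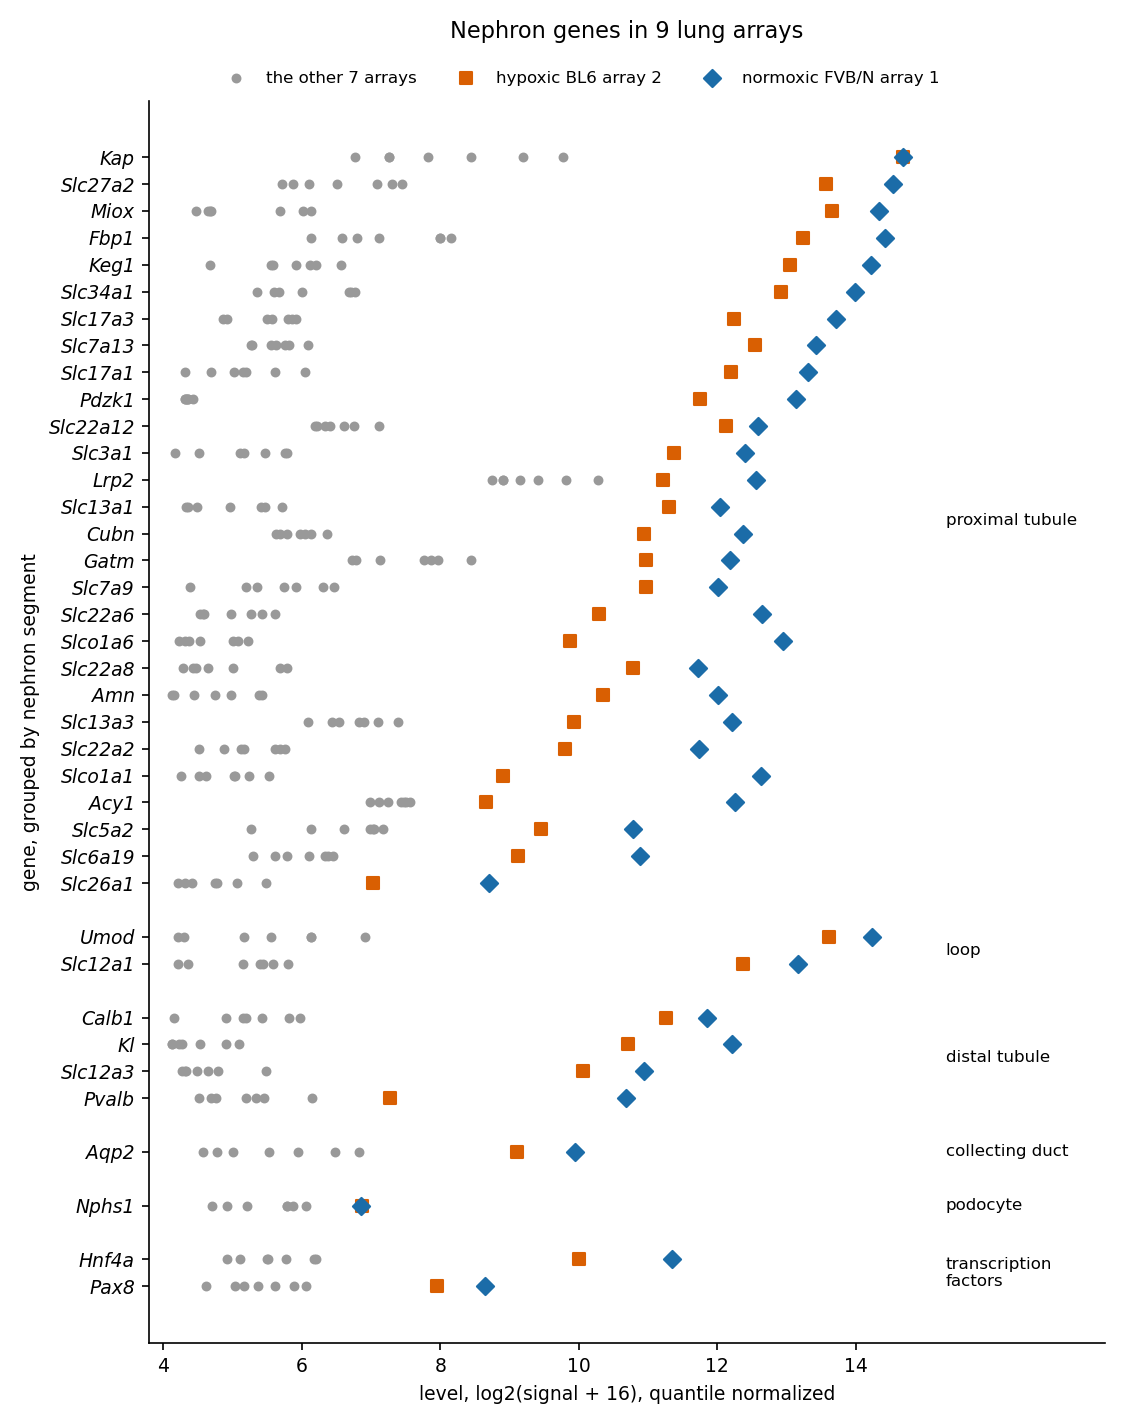
Level of each nephron gene (log2 of signal + 16, quantile normalized) on hypoxic BL6 array 2 (orange squares), normoxic FVB/N array 1 (blue diamonds) and the other 7 arrays (grey points), grouped by nephron segment. All 38 genes have both coloured symbols to the right of every grey point. The mean of the pair less the mean of the 7 ranges from 8.82 for Miox to 1.38 for Nphs1.

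Both arrays were nonetheless lung by their own markers. Surfactant protein C (Sftpc) lay at 14.95 and 14.79 on the BL6 and FVB/N array, inside the 14.61 to 14.95 of the other 7, and the alveolar type 1 marker Ager at 14.64 and 14.40, below their 14.68 to 14.95. Relative to the median of the 7, the median over 11 alveolar type 2 genes was 0.10 on the BL6 array and -0.39 on the FVB/N array, and over 12 endothelial genes -0.44 and -0.53. On the FVB/N array 9 of 11 type 2, 10 of 10 type 1, 8 of 10 club and ciliated, and 9 of 12 endothelial genes lay below that median. On the BL6 array the same counts were 2, 8, 2 and 10. The part of these shifts in the nephron gene levels was not tested.

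The organic ion carriers of the proximal tubule were all at least 8-fold above the highest of the 7 arrays, 8 of 8, against 0.704% of all genes. Slc17a3, a phosphate and urate transporter, lay at 12.25 on the BL6 array and 13.72 on the FVB/N array, against 4.86 to 5.92 (median 5.57) on the other 7. Its neighbour in function Slc17a1 lay at 12.20 and 13.31, against 4.31 to 6.04 (median 5.15). The urate exchanger URAT1, encoded by Slc22a12, lay at 12.13 and 12.59, against 6.19 to 7.11 (median 6.41). None of these 3 overlapped between the pair and the 7, an order the genes were chosen for and that 8.23% of all genes shared. The organic anion transporters OAT1 (Slc22a6) and OAT3 (Slc22a8), the cation transporter OCT2 (Slc22a2) and the organic anion transporting polypeptides Slco1a1 and Slco1a6 spanned 8.91 to 10.79 on the BL6 array and 11.72 to 12.95 on the FVB/N array.

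Carriers of nutrients and minerals held 9 genes, of which 5 passed 8-fold, against 0.704% of all genes. Slc34a1, the main phosphate cotransporter of the brush border, lay at 12.92 and 13.99, against 5.36 to 6.77 (median 6.01). Slc7a13, an amino acid transporter of the late proximal tubule, lay at 12.55 and 13.43, against 5.26 to 6.09 (median 5.63). Slc3a1, the heavy subunit of the cystine exchanger, lay at 11.38 and 12.41, against 4.17 to 5.79 (median 5.16), and its light subunit Slc7a9 at 10.97 and 12.02, against 4.38 to 6.46 (median 5.75). Both subunits were thus well apart from the 7 arrays on each array of the pair. The glucose cotransporter SGLT2 (Slc5a2) stood closer, at 9.46 and 10.79 against 5.27 to 7.17 (median 6.99), although its other probe set lay at 10.97 and 12.17, against 4.64 to 6.85. The sulfate exchanger Slc26a1 was the dimmest of the group at 7.03 and 8.70 against 4.21 to 5.48 (median 4.74).

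Among the receptors that take up filtered protein, cubilin (Cubn) lay at 10.94 and 12.38, against 5.63 to 6.36 (median 5.98). Its membrane anchor amnionless (Amn) lay at 10.35 and 12.02, against 4.13 to 5.43 (median 4.75). Megalin (Lrp2), the partner receptor, lay at 11.22 and 12.56, but the other 7 arrays were themselves high for it, from 8.75 to 10.28 (median 9.15). Lrp2 was thus the gene of the list with the highest level on the 7 arrays and the smallest difference of the proximal tubule genes, 2.58. Pdzk1, a scaffold under the brush border, had the tightest spread: 11.76 and 13.14, against 4.31 to 4.43 (median 4.34).

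The 3 brightest genes of the list, by the mean of the pair, were proximal tubule enzymes and other proteins, followed by Umod of the thick ascending limb. Kap, the kidney androgen-regulated protein, lay at 14.69 on both arrays, against 6.77 to 9.77 (median 7.83). Miox, which opens the ring of myo-inositol, lay at 13.66 and 14.34, against 4.47 to 6.13 (median 4.69). Slc27a2, a fatty acid transporter and very long chain acyl-CoA synthetase, lay at 13.58 and 14.54, against 5.72 to 7.45 (median 6.51). On the scale of the deposited signal Kap reached 27527 on the BL6 array and 24834 on the FVB/N array, against a median of 197 and a maximum of 871 on the 7. The gluconeogenic enzyme Fbp1 lay at 13.24 and 14.42, against 6.14 to 8.15 (median 7.12), and Gatm, which makes the precursor of creatine, at 10.97 and 12.18, against 6.73 to 8.44 (median 7.77). Acy1, an aminoacylase, was close to the 7 arrays on one array of the pair, at 8.66, and far from them on the other, at 12.26, against 6.99 to 7.56 (median 7.44).

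Hnf4a, a nuclear receptor that drives proximal tubule and liver genes, lay at 11.35 on the FVB/N array and 1.35 lower on the BL6 array, against 4.92 to 6.20 (median 5.51). Pax8, a factor of nephron formation, lay at 7.95 and 8.64, against 4.61 to 6.06 (median 5.37). Promoters of the list were read for the sites of such factors, in the 250 bases before each start that the RefSeq promoter table (build GRCm38.p6) lists for a gene, which covered 34 of the 38. The spelling CAAAGNNCA, an open form of an HNF4 site searched on both strands, occurred in 7 of the 34 (20.6%) and in 6.29% of 27025 genes of that table. The 7 were Cubn, Lrp2, Nphs1, Slc13a3, Slc3a1, Slc7a9 and Slco1a6. Its narrower form CAAAGTCCA, which the open form contains, occurred in 1 (2.94%) against 0.451% of genes. The HNF1 palindrome with an open middle base, searched in the same way, occurred in 0 of the 34 and in 3 of 27025 genes (0.0111%). A spelling this rare cannot show whether the 34 lack HNF1 sites. A match is a stretch of letters in a window, not a shown binding site.

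The sequences below are the promoters of the cystine exchanger subunits and of the megalin and cubilin receptors, shown because these are partner proteins that were high together on both arrays and each holds a match, in capitals. They run 5′ to 3′ in the direction of the gene and end at the base before the farthest upstream start in that table. For Slc7a9 this start lies inside the annotated gene, which begins at base 35448727 of the chromosome, so its window does too. Slc3a1 spans chr17:85028097-85028346 on the plus strand, with the match 39 to 31 bases before the start. Slc7a9 spans chr7:35448842-35449091 on the plus strand, with the match, on the opposite strand, 127 to 119 bases before the listed start. Lrp2 spans chr2:69586030-69586279 on the minus strand, with the match 154 to 146 bases before the start. Cubn spans chr2:13491877-13492126 on the minus strand, with the match 35 to 27 bases before the start.
Slc3a1: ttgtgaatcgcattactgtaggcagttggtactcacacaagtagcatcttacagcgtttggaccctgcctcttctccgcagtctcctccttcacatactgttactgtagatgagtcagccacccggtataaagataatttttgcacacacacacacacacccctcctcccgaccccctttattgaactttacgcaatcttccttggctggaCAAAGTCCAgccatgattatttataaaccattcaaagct
Slc7a9: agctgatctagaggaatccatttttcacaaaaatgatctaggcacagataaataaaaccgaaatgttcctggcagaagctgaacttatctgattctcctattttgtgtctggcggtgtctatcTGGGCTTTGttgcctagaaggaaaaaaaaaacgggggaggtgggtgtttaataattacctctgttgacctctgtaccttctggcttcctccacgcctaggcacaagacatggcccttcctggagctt
Lrp2: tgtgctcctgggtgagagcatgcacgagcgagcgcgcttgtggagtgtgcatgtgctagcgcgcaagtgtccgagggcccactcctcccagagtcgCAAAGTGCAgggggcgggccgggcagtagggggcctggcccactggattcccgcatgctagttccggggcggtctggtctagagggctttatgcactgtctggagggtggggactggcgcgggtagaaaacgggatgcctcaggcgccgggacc
Cubn: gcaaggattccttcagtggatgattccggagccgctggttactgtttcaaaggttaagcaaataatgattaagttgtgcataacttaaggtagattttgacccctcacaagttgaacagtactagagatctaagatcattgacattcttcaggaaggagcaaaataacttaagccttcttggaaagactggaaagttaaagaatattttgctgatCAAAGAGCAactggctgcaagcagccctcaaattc

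Beyond the proximal tubule, the thick ascending limb had the largest median difference of any segment among the 38 genes, 8.04 log2 units over 2 genes. This order depends on the genes listed. Over the 10 further loop genes described below the median was 3.10, less than the 4.00 of 30 further proximal tubule genes. Umod, which encodes uromodulin, the most abundant protein of normal urine, lay at 13.62 on the BL6 array and 14.24 on the FVB/N array, against 4.21 to 6.92 (median 5.56). Slc12a1, the furosemide-sensitive salt cotransporter, lay at 12.38 and 13.17, against 4.21 to 5.80 (median 5.40). Deposited Umod signals were 12401 and 18050, where the 7 arrays ran from 2.83 to 115.

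All 4 distal tubule genes were above the 7 arrays on both arrays, as were 8.23% of all genes. The calcium buffer Calb1 lay at 11.26 and 11.85, against 4.16 to 5.98 (median 5.19). Klotho (Kl), the coreceptor of FGF23, lay at 10.72 and 12.22, against 4.12 to 5.10 (median 4.27). Slc12a3, the thiazide-sensitive salt cotransporter, lay at 10.06 and 10.94, against 4.27 to 5.48 (median 4.48). Parvalbumin (Pvalb), a calcium buffer of the early distal tubule and of fast muscle, was different on each array of the pair, at 7.27 and 10.69, against 4.52 to 6.15 (median 5.19). Beside it, 12 brown adipocyte and fast muscle genes, Pvalb among them, averaged 10.19 on the FVB/N array, 6.59 on the BL6 array and 6.44 to 6.93 on the others. Skeletal actin (Acta1) reached 13.13 and muscle creatine kinase (Ckm) 12.25 on the FVB/N array, and the brown fat marker Ucp1 only 4.54. The part of muscle transcripts in the Pvalb level was not tested.

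The ends of the nephron were each read through 1 gene. Aqp2, the vasopressin-regulated water channel of the collecting duct, lay at 9.11 and 9.94, against 4.57 to 6.83 (median 5.53). Nphs1, which encodes nephrin of the podocyte slit, lay at 6.87 and 6.85, against 4.71 to 6.06 (median 5.79). Both genes were above every one of the 7 arrays, as were 8.23% of all genes, but neither by 8-fold.

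Further genes of each segment, from lists that share none of the 38, were read in the same way. These lists too were drawn up with earlier results of these data known, so the counts are a description and no test. Of 30 further proximal tubule genes 27 had both arrays above all 7, of 10 loop genes 10, of 8 distal genes 6, of 16 collecting duct genes 11 and of 5 podocyte genes 1, against the 8.23% of all genes. Bright examples were Acsm2 at 14.01 and 14.45, Cyp2j5 at 12.61 and 13.86, Egf of the ascending limb at 12.85 and 13.44, and the sodium pump subunit Fxyd2 at 13.30 and 14.01. Some collecting duct genes already high on the 7 arrays did not follow. The sodium channel subunit Scnn1g lay at 11.40 and 10.85, against 11.32 to 11.75 on the 7 arrays, while Hsd11b2, which inactivates corticosterone, lay at 9.16 and 10.06 against 6.44 to 6.91. The podocyte gene Podxl lay at 12.81 and 12.01, against 12.41 to 13.19.

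Genes of other abdominal organs were given the same reading. None of 12 adrenal genes had both arrays above all 7, and their median shift was 0.15 on the BL6 array and 0.19 on the FVB/N array. Of 9 liver genes 2 did: Apoc3 at 7.30 and 7.85 against 5.01 to 6.25, and Ttr at 10.75 and 6.65 against 4.30 to 5.53. Albumin (Alb) lay at 6.49 and 6.81, within the 5.63 to 6.93 of the 7 arrays. Of 7 small intestine genes, 1 had both arrays above all 7, where 8.23% of all genes did.

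**Figure D2:**
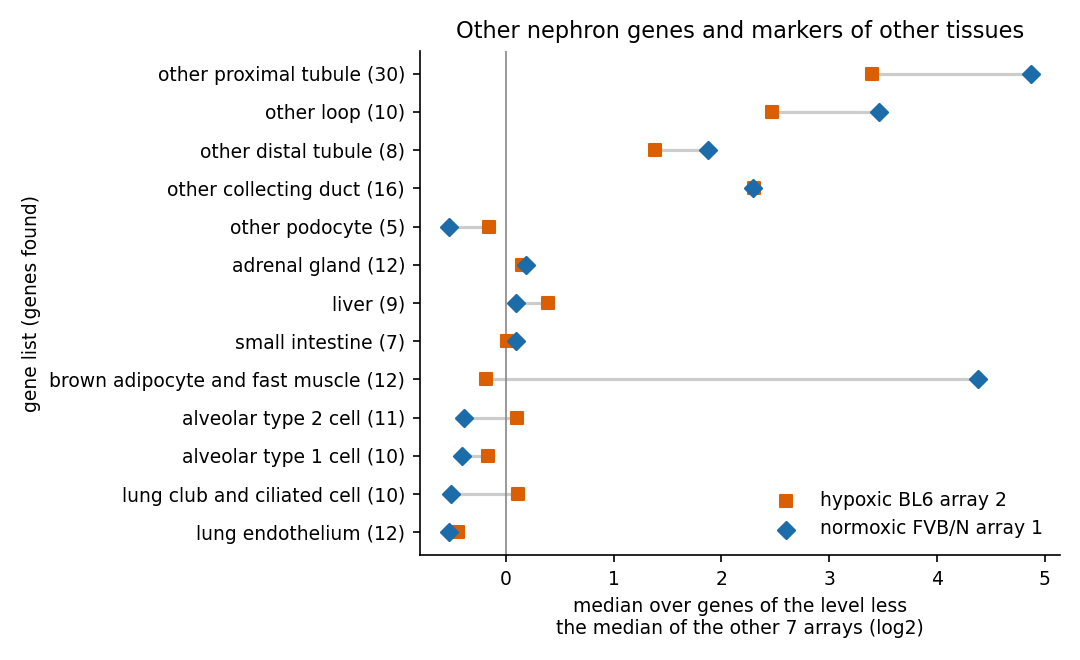
Median over the genes of each list of the level on hypoxic BL6 array 2 (orange) and normoxic FVB/N array 1 (blue) less the median of the other 7 arrays, in log2 units. Lists of further tubule genes lie between 1.38 and 4.87, adrenal, liver and intestine lists between 0.01 and 0.39, and the muscle list is high on the FVB/N array alone (4.38 against -0.18).

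The excess of each gene, its deposited signal on an array less the median of the 7, was then compared between the 2 arrays. The FVB/N array carried more in 36 of 38 genes, with a median ratio of FVB/N to BL6 excess of 2.28 (0.878 to 20.4). Strain, pressure, array and amount of kidney transcript cannot be told apart in this ratio, since each array is a single sample. By segment the median was 2.67 for 28 proximal tubule genes, 2.44 for 4 distal genes, 1.73 for Aqp2, 1.66 for 2 loop genes and 0.878 for Nphs1. Pvalb, at 13.0, is among the 4 distal genes. Further genes above all 7 on both arrays gave 2.80 for 27 proximal tubule and 2.35 for 10 loop genes. They gave 1.63 for 6 distal, 1.53 for 11 collecting duct and 0.415 for 1 podocyte gene. Loop and distal genes thus changed order between the lists. Within the proximal tubule the median was 3.44 for organic ion carriers, 3.13 for endocytic receptors and scaffold, 2.23 for nutrient and mineral carriers and 2.14 for enzymes and other proteins. Segments also differed in signal. Nphs1 was dim, at 105 on the BL6 array and 96.8 on the FVB/N array, against a maximum of 54.5 on the 7. The genes brightest on the pair, Kap, Slc27a2, Miox, Umod and Fbp1, gave 0.901, 1.87, 1.5, 1.46 and 2.27. The part of signal level in these ratios was not tested.

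A ratio of 1 to 4 held 29 of the 38 genes, and 7 exceeded it. Those were Acy1 at 20.4, Slco1a1 at 14.4, Pvalb at 13.0, Slco1a6 at 9.26, Slc13a3 at 5.73, Slc22a6 at 5.62 and Slc22a2 at 4.07. Thus 4 of the 8 organic ion carriers were among them, and the deposited signal of Slco1a1 was 482 on the BL6 array and 6738 on the FVB/N array. Below 1 were Kap at 0.901 and Nphs1 at 0.878, and the other probe set of Kap gave 1.14.

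**Figure D3:**
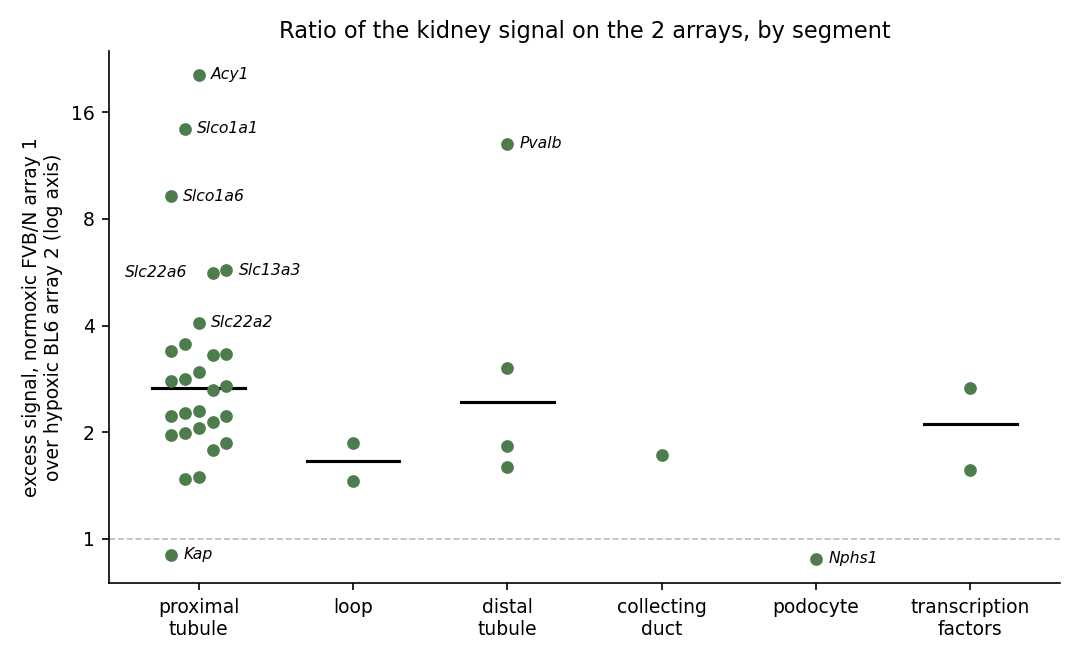
Ratio of the signal excess on normoxic FVB/N array 1 to that on hypoxic BL6 array 2 for each gene (log axis), by nephron segment, with a bar at the median of each segment of more than 1 gene. Most genes lie between 1 and 4, and Acy1 (20.4), Slco1a1 (14.4), Pvalb (13.0) and Slco1a6 (9.26) lie highest.

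The choice of genes rested on the pair against the other 7 arrays, and the brightest probe sets and the normalization used all 9. Differences among the 7 arrays were not the basis of that choice, and were fitted with strain and pressure as additive terms. Only 9 of the 38 genes passed the filter on dim probe sets there: Lrp2, Kap, Gatm, Acy1, Fbp1, Slc13a3, Slc5a2, Slc22a12 and Slc27a2. The remaining 29 were among the dimmest 40% of probe sets by their mean over these arrays. FVB/N has no normoxic array among the 7, so the hypoxia term rests on BL6 and SV129, and the FVB/N differences assume the same hypoxia effect in that strain.

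None of the 9 genes passed the threshold for hypoxia, an adjusted p below 0.05 in limma. That threshold was passed by 0.634% of the genes tested. An unadjusted p below 0.05 in limma was found for 4266 of 27022 probe sets and for 1 of the 9 genes. It was Slc5a2, which lay at 6.99 on hypoxic BL6 array 5, 7.03 and 7.05 on hypoxic FVB/N arrays 2 and 6, 7.17 and 6.61 on hypoxic SV129 arrays 2 and 5, 5.27 on normoxic BL6 and 6.14 on normoxic SV129. The hypoxic arrays were all above both normoxic ones, an order whose share over all genes was not counted. The estimate was 1.17 ± 0.33 log2 units (SE), with a limma adjusted p of 0.152. The difference was 0.75 without hypoxic BL6 array 5 or without normoxic BL6, and 1.72 without normoxic SV129. Its other probe set, too dim to be tested, did not share this order, with 5.78 on hypoxic and 6.48 on normoxic BL6, 6.85 and 6.73 on hypoxic FVB/N arrays 2 and 6, 4.95 and 4.64 on hypoxic SV129 arrays 2 and 5 and 6.39 on normoxic SV129. The median change of the 9 was -0.14, against 0.03 for all genes, with 4 above 0 and 5 below (2 and 7 on the authors' scaling).

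Between strains, 1 of the 9 genes was called in SV129 against BL6, where 2.09% of genes were, and it was Fbp1. Fbp1 lay at 6.14 on hypoxic and 6.58 on normoxic BL6, at 8.0 and 8.15 on hypoxic SV129 arrays 2 and 5 and 7.99 on normoxic SV129, and at 7.12 and 6.80 on hypoxic FVB/N arrays 2 and 6. All 3 SV129 arrays were above the other strains, an order whose share over all genes was not counted. The SV129 level was 1.71 ± 0.26 log2 units above BL6 (3.26-fold, limma adjusted p 0.0166) and 1.04 ± 0.27 above FVB/N (limma adjusted p 0.111). The call against BL6 was lost when hypoxic BL6 array 5 (1.40, limma adjusted p 0.686), normoxic BL6 (1.93, 0.116) or normoxic SV129 (1.93, 0.125) was left out.

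Lrp2 was also highest in SV129, without a call. It lay at 8.91 and 8.75 on hypoxic and normoxic BL6, 8.90 and 9.15 on hypoxic FVB/N arrays 2 and 6, 9.81 and 10.28 on hypoxic SV129 arrays 2 and 5 and 9.41 on normoxic SV129. SV129 exceeded BL6 by 0.93 ± 0.23 and FVB/N by 0.96 ± 0.24, each with a limma adjusted p of 0.101. Here too the 3 SV129 arrays did not overlap with the other 4, an order whose share over all genes was not counted.

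Slc27a2 and Kap ran the other way. Slc27a2 lay at 7.30 and 7.45 on hypoxic and normoxic BL6, 6.51 and 7.08 on hypoxic FVB/N arrays 2 and 6, 6.10 and 5.88 on hypoxic SV129 arrays 2 and 5 and 5.72 on normoxic SV129, a difference of -1.49 ± 0.30 for SV129 against BL6 (limma adjusted p 0.0517). Kap lay at 8.44 and 9.20 on hypoxic and normoxic BL6, 7.83 and 9.77 on hypoxic FVB/N arrays 2 and 6, 7.26 and 6.77 on hypoxic SV129 arrays 2 and 5 and 7.26 on normoxic SV129. The Kap difference was -1.65 ± 0.51 against BL6 (limma adjusted p 0.183). Its other probe set fell further, by 3.85 ± 0.75 (limma adjusted p 0.0441), with 7.70 and 9.37 on BL6, 6.45 and 8.97 on FVB/N and 5.06, 4.63 and 4.20 on SV129. That probe set was 1 of the 2.06% called among all probe sets in this comparison.

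In FVB/N against BL6 none of the 9 genes was called by limma, where 1.43% of genes were. An unadjusted p below 0.05 was found for 2761 of 27022 probe sets and for 1 of the 9 genes. Gatm lay at 6.73 and 7.13 on hypoxic and normoxic BL6, 7.86 and 8.44 on hypoxic FVB/N arrays 2 and 6, 7.77 and 6.79 on hypoxic SV129 arrays 2 and 5 and 7.97 on normoxic SV129. The FVB/N level was 1.51 ± 0.41 above BL6 (limma adjusted p 0.182). In SV129 against FVB/N none of the 9 was called, where 2.24% of genes were. An unadjusted limma p below 0.05 was found for 3893 of 27022 probe sets and for 5 of the 9 genes. These were Lrp2, Fbp1, Kap, Slc27a2 and Gatm, with differences from -1.86 (Kap) to 1.04 (Fbp1).

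**Figure D4:**
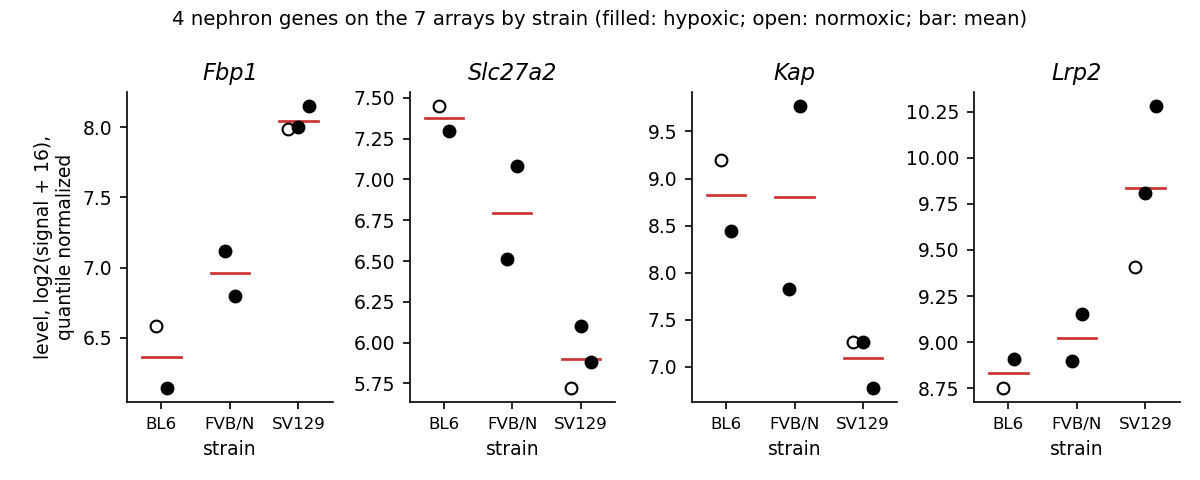
Level (log2 of signal + 16, quantile normalized) of nephron genes on the 7 arrays without hypoxic BL6 array 2 and normoxic FVB/N array 1, by strain, with filled points hypoxic, open points normoxic and bars at the mean. Fbp1 and Lrp2 are highest on the SV129 arrays, and Slc27a2 and Kap lowest there.

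The 10 genes brightest on the pair were also set side by side over the 7 arrays. Their mean level was 6.48 on normoxic BL6, 6.45 on hypoxic FVB/N array 6, 6.23 on hypoxic BL6 array 5, 6.09 on hypoxic FVB/N array 2, 5.83 and 5.66 on hypoxic SV129 arrays 2 and 5, and 5.79 on normoxic SV129. Normoxic BL6 was above the median of the 7 arrays in 8 of the 10 genes and each SV129 array in 2. Over all 38 genes the 7 means ran only from 5.56 to 5.90.

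**Figure D5:**
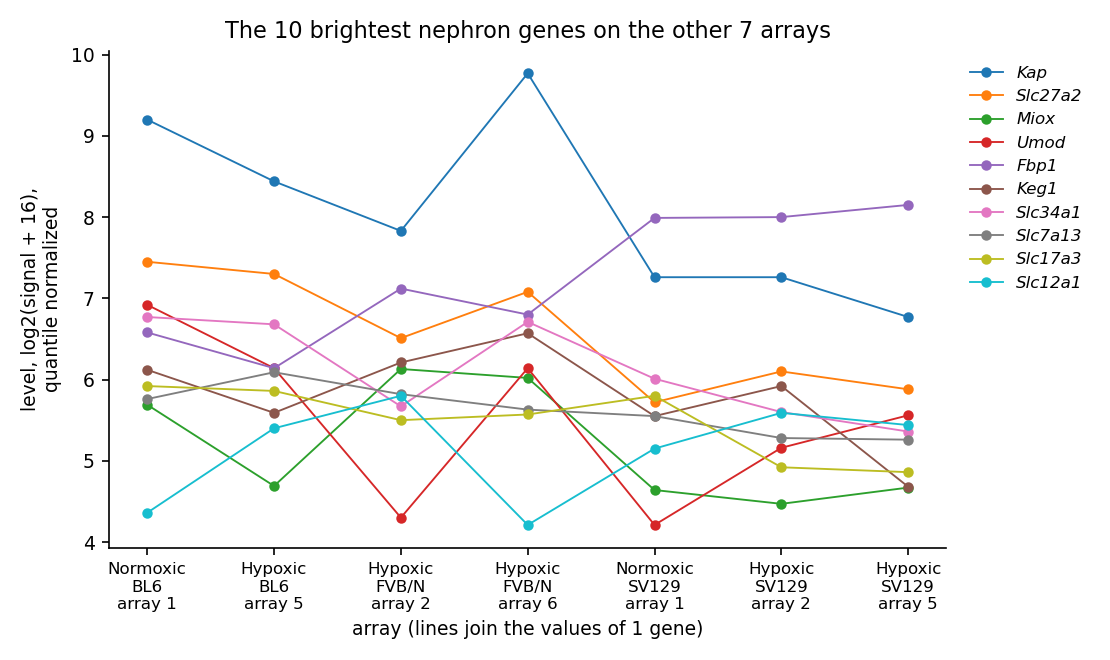
Levels of the 10 brightest nephron genes (log2 of signal + 16, quantile normalized) on each of the 7 other arrays, with lines joining the values of 1 gene. Mean levels run from 5.66 on hypoxic SV129 array 5 to 6.48 on normoxic BL6.

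With all 9 arrays in the fit, the pair fell on opposite sides of the comparison, one hypoxic and the other normoxic. The genes were chosen on these 2 arrays, so the estimates describe the pair and are no test of hypoxia. Of the 38 genes 32 passed the filter, where 9 did without the pair. None of the 32 was called by limma or had an unadjusted p below 0.05, where 2.75% of genes were called, and nothing is read from that count. Estimates ran from -2.06 to -0.01 (median -1.50), with a median SE of 1.68 against 0.19 for all genes. The median was 1.25 over 19 genes without normoxic FVB/N array 1 and -2.65 over 22 genes without hypoxic BL6 array 2, directions that the choice of genes fixes.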

How the data were processed

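Gene expression was read in 9 arrays of whole right lung, snap frozen and extracted on silica columns, per the labels' protocols. The values are linear intensity signals deposited by the authors, 1 per probe set and array, and each array's intensity has a mean of 500 once 2% of probe sets are left out at each end. The labels name no software for these signals. Another 12 arrays are mentioned in the design text and were not analysed here.

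Signals were taken as log2(signal + 16) and quantile normalized over the 9 arrays, so fold changes of dim genes are understated. Of 45101 probe sets 64 controls were left out. Of the rest 34945 had 1 symbol, 932 several and 9160 none in the annotation used, and a gene is its brightest probe set. The excess ratio used the deposited scale. Models used limma 3.58.1 in R 4.3.3 (lmFit, eBayes with intensity trend) with strain and pressure, after the dimmest 40% by mean over the arrays fitted were left out, with Benjamini-Hochberg adjustment over 27022 probe sets and a threshold of 0.05. The fit had 3 residual degrees of freedom on 7 arrays and 5 on 9.

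The genes, lists and tests were chosen with earlier results of these data known. Levels on the pair and the range of the 7 arrays were given for all genes outside the proximal tubule. The same held for the 3 brightest of each proximal tubule role, the 5 highest on the 7 arrays and any gene called on them. Values on each of the 7 were given for Slc5a2, Fbp1, Lrp2, Slc27a2, Kap and Gatm. From other lists at most the 4 brightest were named, and Ucp1, Amn, Slc5a2, Slc7a9 and Slc26a1 were added after their values were seen. On simulated data of 27022 probe sets the 7-array fit recovered, for hypoxia, 8 of 100 changed by 1 log2 unit and 63 of 100 changed by 2. For SV129 against BL6 it recovered 7 and 69, for SV129 against FVB/N 4 and 63, and for FVB/N against BL6 2 and 50. Changes were placed only in probe sets above the median level. The 9 tested nephron genes had a median SE of 0.289 for hypoxia, against 0.22 for all genes, and their own recovery was not simulated. Alternatives varied the scaling, pseudocount, filter, trend, probe set rule, array number as a block, and each array left out. Promoters are RefSeq's, matched by gene ID.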

Additional observations from a re-analysis of the deposited data

How the results depend on the processing

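All 38 genes kept both arrays above the other 7 under 5 alternatives, with a median difference of 7.16 at a pseudocount of 1, 5.05 at 64 and 5.10 with the mean of a gene's probe sets. The genes were chosen for this order, so that it held is no test. The median excess ratio stayed between 2.27 and 2.41. Counts of called probe sets were less stable. For hypoxia on 7 arrays the 228 calls became 130 at a pseudocount of 1, 103 with no filter, 0 without the trend (4011 at an unadjusted p below 0.05 in limma) and 0 with the gene mean (1438), and ran from 0 to 901 with 1 array left out. Median centring moved the share of higher calls from 15.8% to 50.4%, with the median of all probe sets at 0.13 in place of 0.02 and the median of the 9 tested nephron genes at -0.13. On 9 arrays the 1016 calls became 582 with no filter, 657 without the trend and 3 with the gene mean, and ran from 3 to 1390 with 1 array left out, while median centring moved the share higher from 51.7% to 71.3%. For FVB/N against BL6 the 331 calls became 217 with 60% left out, 204 without the trend and 199 with the gene mean (23 to 824 with 1 array left out). For SV129 against BL6 the 556 became 325 and 291 with 60% left out and the gene mean (29 to 1050), and for SV129 against FVB/N the 579 became 333 with the gene mean (110 to 1158). The causes were not tested.

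The difference between hypoxic arrays 2 and 5 correlated at -0.042 between BL6 and SV129. With the difference between FVB/N arrays 2 and 6 it correlated at -0.026 in BL6 and -0.188 in SV129. These values showed no pairing by array number but cannot exclude it. FVB/N arrays 2 and 6 are not the same numbers, and BL6 array 2 is 1 of the pair high in nephron genes. With the number as a random replicate block hypoxia gave 3194 calls on 7 arrays and 5586 on 9, and called Slc5a2 (limma adjusted p 0.0214). The block correlations there were negative, -0.489 and -0.241, and number 1 marks the normoxic arrays alone. With it as a fixed block FVB/N against BL6 gave 99, SV129 against FVB/N 299, and Kap was called in SV129 against BL6 (-1.80, limma adjusted p 0.0119).

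Fbp1 in SV129 against BL6 stayed called in 13 of 16 alternatives (1.27 to 1.93). Slc27a2 passed there in 4 of 15, among them median centring (0.0443) and leaving out hypoxic SV129 array 5 (0.0403), with limma adjusted p-values from 0.0403 to 0.686 over all. Without hypoxic SV129 array 5, limma called Slc5a2 for hypoxia (adjusted p 0.0473) and Gatm in FVB/N against BL6 (0.0417), and without hypoxic FVB/N array 2 Kap was called in SV129 against FVB/N (-2.83, 0.0323), a difference that without hypoxic FVB/N array 6 gave -0.89 (0.519) and with the fixed block -0.57 (0.543). The number of arrays limits the precision, and 29 of the 38 genes were too dim on the 7 arrays to be tested.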
